A study of Mus musculus with 22 samples.

Results

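The genes described here are the cyclins of the D, E, A and B classes and the 2 kinases Cdk1 and Cdk2. They were taken by symbol from the count tables of both RNA-seq experiments, and all 10 (Ccnd1, Ccnd2, Ccnd3, Ccne1, Ccne2, Ccna2, Ccnb1, Ccnb2, Cdk1 and Cdk2) were found in both, among 48709 genes. All 10 exceeded a mean count of 1 per library, the limit for testing, which 19752 genes passed in experiment 1 and 17675 in experiment 2.

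RNA came from mouse heart ventricles at E13.5, in midgestation. Every embryo carried Nkx2.5-Cre, a recombinase driven from a gene of early heart progenitors, on a C57/Bl6 background. Experiment 1 compared LIN9 wt with LIN9 KO ventricles (3 libraries each), where the knockout removes a floxed exon of Lin9. Experiment 2 held 4 genotypes with 3 libraries each: LIN9 wt/SAV1 wt (the control), LIN9 KO/SAV1 wt, LIN9 wt/SAV1 KO, and the double knockout LIN9 KO/SAV1 KO, in which a floxed exon of Sav1 is also removed. The labels call the LIN9 wt embryos wild-type, and the text of the study gives their genotype as Lin9 fl/+. Cells that did not descend from Nkx2.5-Cre progenitors keep intact alleles, and the tissue was taken whole. The labels do not say that the libraries of a group came from separate embryos. The study counts its comparisons of LIN9 KO with LIN9 wt as biological replicates, each made in triplicate. Its methods describe triplicate RNA isolations from ventricular tissue. Whether these were separate embryos is not clear from this, and the libraries of a group may be technical repeats. The SDs and p-values below measure only the spread between these libraries.

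LIN9 is a subunit of MuvB, a complex that binds with B-MYB to promoters of genes expressed late in the cell cycle. SAV1 is a scaffold of the Hippo pathway, which restrains the coactivator YAP. The comparisons ask how cyclin and kinase mRNA levels differ when LIN9 is lost, when SAV1 is lost, and when both are lost.

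Cyclins bind and activate cyclin-dependent kinases, and each class acts at its own stage. D cyclins, with CDK4 and CDK6, respond to growth signals in G1. E cyclins activate CDK2 at the entry into S phase. Cyclin A2 acts with CDK2 in S phase and with CDK1 later, and B cyclins activate CDK1 for mitosis. In the mouse heart, cardiomyocytes divide throughout fetal life and leave the cell cycle soon after birth.

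The sequences in front of the start sites are shown for B cyclins with different calls and for their kinase. Of the 10 genes, 6 had an entry in the RefSeq promoter table of GRCm38.p6 (Ccnb1, Ccnb2, Ccnd3, Ccne1, Cdk1 and Cdk2), and Ccna2, Ccnd1, Ccnd2 and Ccne2 did not. Below are 120 bases in front of Ccnb1 (chr13:100786571-100786690, minus strand), which fell in LIN9 KO, and of Ccnb2 (chr9:70421555-70421674, minus strand), which did not pass the test. Those of their kinase Cdk1 follow (chr10:69352939-69353058, minus strand). Each is printed 5′ to 3′ on the strand of the gene, with the bases that GENCODE M21 already places inside the gene left out. Capitals mark CCAAT or its complement ATTGG, the letters that NF-Y binds, TTTGAA, which belongs to the CHR type of element that MuvB binds, and TTTCGCGC, of the E2F type.
Ccnb1: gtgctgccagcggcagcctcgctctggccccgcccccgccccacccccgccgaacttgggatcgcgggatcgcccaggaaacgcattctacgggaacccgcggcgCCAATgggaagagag
Ccnb2: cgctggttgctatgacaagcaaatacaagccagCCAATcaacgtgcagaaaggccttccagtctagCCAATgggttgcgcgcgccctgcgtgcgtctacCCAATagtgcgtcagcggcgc
Cdk1: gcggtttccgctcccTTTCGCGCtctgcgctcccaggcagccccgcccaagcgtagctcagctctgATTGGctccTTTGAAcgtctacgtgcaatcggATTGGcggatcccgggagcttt

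Nearer to the RefSeq start, Ccnb1 and Ccne1 each held 1 TTTAAA, a related word that 12.1% of all promoters held. These sites are given with the surrounding bases, for Ccnb1 at chr13:100786511-100786540 and for Ccne1 at chr7:38107491-38107520, both on the minus strand. Both lie inside the gene by the GENCODE annotation, in which Ccnb1 begins at chr13 position 100786570 and Ccne1 at chr7 position 38107534.
Ccnb1 site: agcggcccggggTTTAAAcctaagcccggc
Ccne1 site: ccgcgcgctgggattTTTAAAtgtcccgct

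TTTGAA was searched together with the related words TTCGAA and also TTTAAA on both strands in the 250 bases before the RefSeq start. At least 1 of them stood in 26.2% of all 32851 promoters. Among the members, Ccnb1, Ccnb2, Cdk1 and Ccne1 held one. In Ccnb2 the word TTTGAA stood 162 to 167 bases before the start, and Cdk1 held it at 66 to 71 and at 10 to 15 bases, the latter inside the GENCODE gene. CCAAT occurred 2 times in Ccnb1, 3 times each in Ccnb2 and Cdk1, and 1 time each in Cdk2 and Ccnd3, and 33.8% of all promoters held it. Of the E2F-type words TTTCCCGC, TTTGGCGC, TTTCGCGC and TTTGCCGC, which 1.86% of promoters held, Cdk1 had 1 and Cdk2 had 1. GGAATG, the letters that TEAD factors bind together with YAP, occurred in Ccnd3 alone among these 6 and in 12.6% of promoters. The GGAATG and CCAAT of Ccnd3 came from a second RefSeq start, whose entry begins at chr17 position 47593217, far inside the GENCODE gene (47505051 to 47599691), and the entry at the GENCODE start held neither. One CCAAT of Ccnb1 also lies inside its GENCODE gene. A match shows only that the letters are there.

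Total counts lay between 9485599 and 9615274 in experiment 1 and between 2770741 and 2999877 in experiment 2, so that 1 count equals 0.104 to 0.105 and 0.333 to 0.361 CPM, the unit that sets every library to the same total. Levels below are CPM scaled by TMM, a factor per library, and values in a row are those of replicates 1, 2 and 3. Lin9, the targeted gene, was 29.8, 21.4 and 25.6 CPM in LIN9 wt and 21.4, 21.3 and 19.2 in LIN9 KO of experiment 1. In experiment 2 it was 23.2 to 29.3 CPM in the control and 13.1 to 17.9 in LIN9 KO/SAV1 wt. With SAV1 KO it was 19.2 to 31.4 CPM in LIN9 wt and 18.5 to 26.1 in the double knockout. Lin9 in the double knockout thus lay above LIN9 KO/SAV1 wt and overlapped both LIN9 wt groups. In LIN9 KO it fell by 0.80 ± 0.19 (SE) on the log2 scale with SAV1 wt (adjusted p = 0.0027, edgeR), and was not called in experiment 1 (−0.31 ± 0.14, adjusted p = 0.13) or with SAV1 KO (−0.16 ± 0.18, adjusted p = 0.586). Sav1 was not called in SAV1 KO with LIN9 wt (−0.50 ± 0.12, adjusted p = 0.318) or with LIN9 KO (−0.23 ± 0.12, adjusted p = 0.464), and was lower in the double knockout against the control (−0.44 ± 0.12, adjusted p = 0.0087), a call lost without control replicate 3 (−0.39, adjusted p = 0.053). Gene counts do not single out the deleted exons, so they check the labels only weakly.

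Some tissue markers differed between LIN9 KO and LIN9 wt. The summed level of 9 ventricular cardiomyocyte markers was 16891 to 17832 CPM in LIN9 wt and 7779 to 8863 in LIN9 KO of experiment 1, and 7 of the 8 tested were lower. Of the 9, Actc1 was listed at 0 in all libraries, and its exons lie wholly under the span of another gene, as described with the gene lengths. The 10 erythroid markers summed to 6237 to 8778 CPM in LIN9 wt and 31098 to 77214 in LIN9 KO, and all 9 tested were higher, Alas2 being listed at 0. In experiment 2 the cardiomyocyte sum was 17259.5 to 19107 CPM in the 6 LIN9 wt libraries and 7121 to 10157 in the 6 LIN9 KO libraries, and the erythroid sum was 2387 to 4045 and 9006 to 32972 CPM. Of 5 macrophage markers 5 were higher in LIN9 KO of experiment 1, as were 5 of 6 for fibroblasts and cushion mesenchyme and 4 of 5 for epicardium. The summed levels of these lists were 42.7 to 48.7, 2125 to 2439 and 245 to 266 CPM in LIN9 wt, and 85.6 to 106.6, 4114 to 4683 and 402 to 479 in LIN9 KO. Of the atrial cardiomyocyte markers 0 of 5 were called, of the endothelial and endocardial ones 2 of 6 were higher, and of smooth muscle 1 of 4, where 11.1% of all tested genes were called higher and 9.78% lower. The atrial sums, 2576 to 3305 CPM in LIN9 wt and 2668 to 3389 in LIN9 KO, overlapped, as did the endothelial sums, 796 to 1021 and 925 to 1247 CPM, and those of smooth muscle, 1438 to 1685 and 1903 to 2287 CPM, did not. Experiment 2 differed in this. The atrial sums overlapped again, but those of smooth muscle overlapped both with SAV1 wt (1399 to 1510 and 1361 to 1748 CPM) and with SAV1 KO (1640 to 1702 and 1506 to 1701). The endothelial sums overlapped with SAV1 wt (901 to 948 and 943 to 1080 CPM) and were apart with SAV1 KO (789 to 841 and 917 to 1048), where 4 of the 6 genes were higher and 1 lower. The macrophage, fibroblast and epicardial sums of LIN9 KO again lay above those of LIN9 wt with either SAV1 genotype. With SAV1 wt they were 50.5 to 55.4, 2716 to 2969 and 221 to 227 CPM in LIN9 wt. In LIN9 KO/SAV1 wt they were 95.3 to 128, 4765 to 6413 and 376 to 453 CPM. The part of these cell types in the results below was not tested. In whole tissue, fewer cells of a type and less RNA per cell cannot be told apart.

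Loss of LIN9 was accompanied by lower mRNA of one cyclin from each of the A, B and E classes, and by higher Ccnd2. Ccna2, Ccnb1 and Ccne1 fell in every comparison of LIN9 KO with LIN9 wt. Ccnb2, Ccne2, Ccnd1 and Cdk2 passed the test in none of them. Ccnd2 rose in experiment 2 with either SAV1 genotype. Members of one class thus differed in their calls. The plot of CPM by library shows all values.

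**Figure D1:**
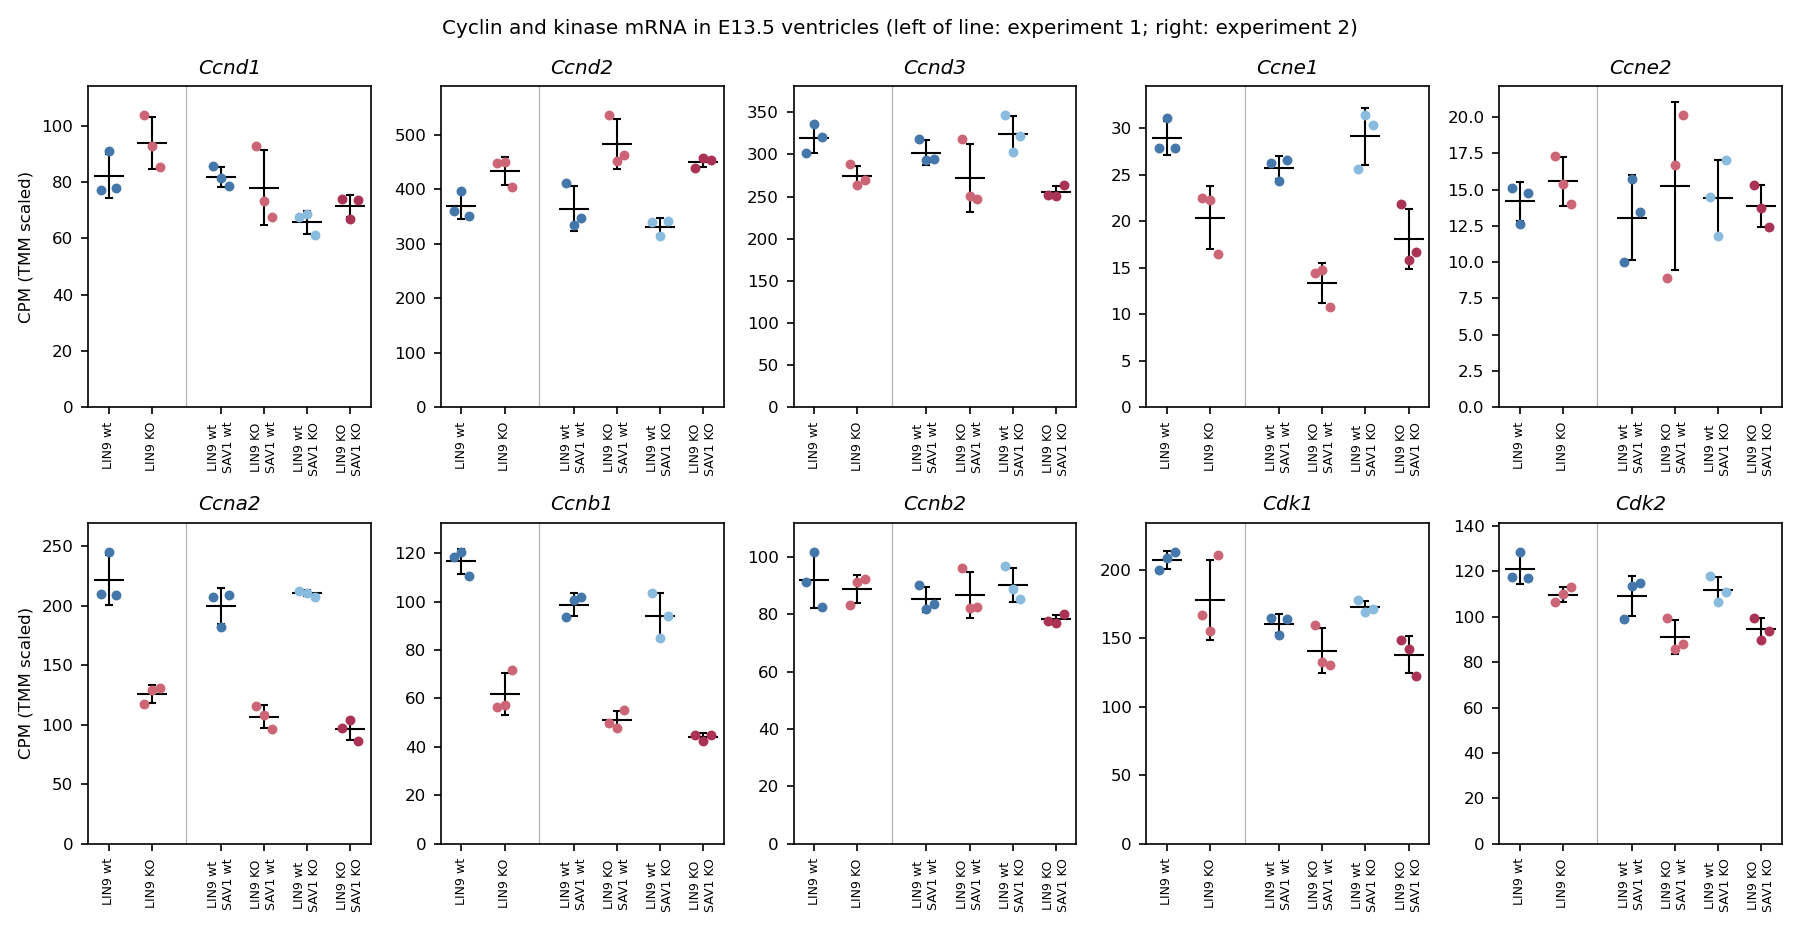
TMM-scaled CPM of the 10 genes in each library, with 1 panel per gene, points for libraries, and horizontal bars and whiskers for the group mean ± SD (n = 3). The LIN9 KO libraries lie below all LIN9 wt libraries for Ccna2, Ccnb1 and Ccne1 in both experiments, while those of Ccne2 overlap.

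In experiment 1, 3 of the 10 genes were lower and 0 higher in LIN9 KO, where 9.78% of all tested genes were called lower and 11.1% higher. In experiment 2 with SAV1 wt, 3 were lower and 1 higher, against 10.5% of all genes lower and 12.8% higher. With SAV1 KO, 5 were lower and 1 higher, against 11.6% lower and 11.8% higher. In the double knockout against the control, 3 were lower and 1 higher, against 9.96% lower and 10.7% higher. This last comparison shares its control libraries with that of LIN9 KO at SAV1 wt. The median log2 change of the 10 genes was −0.18, −0.17, −0.28 and −0.21 in the 4 comparisons, beside 0.02, 0.01, 0.03 and 0.03 over all tested genes. A gene was called where its p from the quasi-likelihood test of edgeR, adjusted over all tested genes by the Benjamini-Hochberg method, was under 0.05.

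Ccna2 encodes the cyclin of S phase and G2. Its level was 210.1, 245 and 209 CPM in LIN9 wt and 117, 129 and 131 in LIN9 KO of experiment 1. In experiment 2 it was 207, 182 and 209 CPM in the control and 116, 108 and 96.6 in LIN9 KO/SAV1 wt. It was 212, 211 and 207 CPM in LIN9 wt/SAV1 KO and 97.1, 104 and 86.4 in the double knockout. The highest LIN9 KO library of each comparison thus lay below the lowest LIN9 wt library. Ccna2 fell to 0.568 times its LIN9 wt level in experiment 1 (log2 −0.82 ± 0.11 SE, adjusted p = 8.4e-05, edgeR). The fold was 0.536 with SAV1 wt (−0.90 ± 0.10, adjusted p = 1.7e-07) and 0.456 with SAV1 KO (−1.13 ± 0.10, adjusted p = 4e-09). The call held under each alternative tried.

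Ccnb1 encodes the main mitotic partner of CDK1. Its level was 119, 121 and 111 CPM in LIN9 wt and 56.4, 57.3 and 71.6 in LIN9 KO of experiment 1. Experiment 2 gave 93.4, 101 and 102 CPM in the control and 50.0, 47.9 and 55.2 in LIN9 KO/SAV1 wt. With SAV1 KO it was 104, 84.8 and 93.8 CPM in LIN9 wt and 45.0, 42.3 and 44.8 in the double knockout. No LIN9 KO library reached any LIN9 wt library. Ccnb1 fell to 0.53 times its LIN9 wt level in experiment 1 (log2 −0.92 ± 0.11 SE, adjusted p = 4.3e-05, edgeR), to 0.516 times with SAV1 wt (−0.95 ± 0.11, adjusted p = 2.4e-07) and to 0.468 times with SAV1 KO (−1.09 ± 0.11, adjusted p = 3.5e-08). These calls, too, held under each alternative.

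Ccnb2, the other B cyclin, did not pass the test. It was at 91.3, 102 and 82.6 CPM in LIN9 wt and 83.3, 91.2 and 92.1 in LIN9 KO of experiment 1. In experiment 2 it was 90.1, 81.9 and 83.7 CPM in the control, 96.0, 82.0 and 82.4 in LIN9 KO/SAV1 wt, 96.9, 88.8 and 85.3 in LIN9 wt/SAV1 KO, and 77.7, 76.8 and 80.0 in the double knockout. The groups overlapped in experiment 1 and at SAV1 wt, and the double knockout lay below LIN9 wt/SAV1 KO. The log2 change was −0.05 (95% interval −0.27 to 0.18) in experiment 1, 0.03 (−0.19 to 0.24) with SAV1 wt and −0.21 (−0.42 to 0.01, adjusted p = 0.16) with SAV1 KO. In all 3 comparisons the interval for Ccnb2 lay above that for Ccnb1, whose upper ends were −0.68, −0.73 and −0.86.

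The ratio of Ccnb1 to Ccnb2 within a library leaves out the scaling between libraries. On the log2 scale, per kb of exon, it was −1.11 ± 0.09 (SD, n = 3) in LIN9 wt and −1.99 ± 0.16 in LIN9 KO of experiment 1. In experiment 2 it was −1.25 ± 0.14 in the control, −2.23 ± 0.18 in LIN9 KO/SAV1 wt, −1.41 ± 0.11 in LIN9 wt/SAV1 KO and −2.29 ± 0.04 in the double knockout. The lowest of the 9 LIN9 wt libraries was at −1.53 and the highest of the 9 LIN9 KO libraries at −1.83. By the longest transcript the ratio was higher in each group, at −0.35 in LIN9 wt and −1.23 in LIN9 KO of experiment 1.

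**Figure D2:**
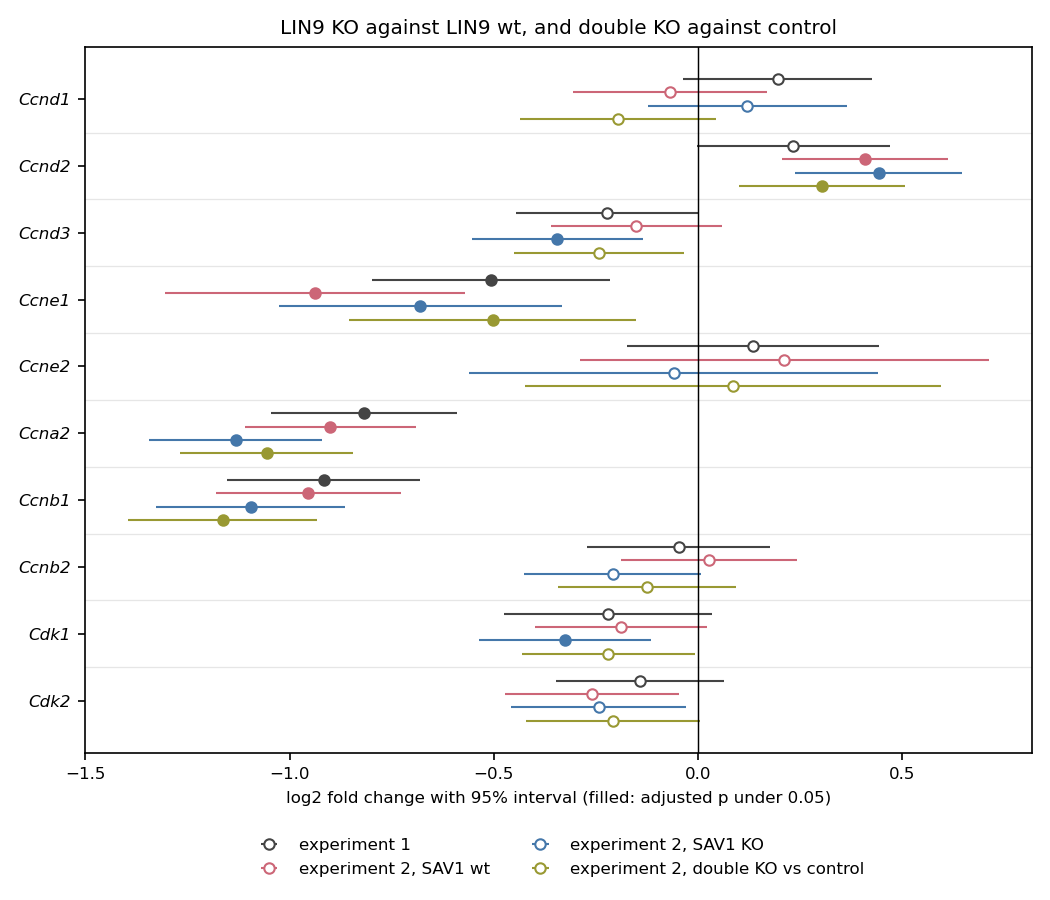
Log2 fold change of each gene with its 95% interval (x axis) in the 3 comparisons of LIN9 KO with LIN9 wt and in the double knockout against the control, with filled symbols for an adjusted p under 0.05. Ccna2, Ccnb1 and Ccne1 lie to the left of 0 in all 4, and the intervals of Ccnb2 and Ccne2 include 0.

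Ccne1 encodes an activator of CDK2 at the start of S phase. It was at 27.9, 31.1 and 27.8 CPM in LIN9 wt and 22.4, 22.2 and 16.45 in LIN9 KO of experiment 1. In experiment 2 it was 26.3, 24.3 and 26.6 CPM in the control, 14.5, 14.8 and 10.8 in LIN9 KO/SAV1 wt, 25.6, 31.4 and 30.4 in LIN9 wt/SAV1 KO and 21.8, 15.8 and 16.7 in the double knockout. LIN9 KO and LIN9 wt libraries did not overlap. Ccne1 fell by 0.51 ± 0.14 (SE) on the log2 scale in experiment 1 (adjusted p = 0.015, edgeR), by 0.94 ± 0.18 with SAV1 wt (adjusted p = 0.00026) and by 0.68 ± 0.17 with SAV1 KO (adjusted p = 0.0036). The first call was lost without replicate 2 of LIN9 wt (−0.45, adjusted p = 0.074). The call of the double knockout against the control (−0.50 ± 0.17, adjusted p = 0.036) was lost with DESeq2 (adjusted p = 0.108) and without any of 4 single libraries, namely control replicates 1 (−0.49) and 3 (−0.48) and double knockout replicates 2 (−0.45) and 3 (−0.48).

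Ccne2, the other E cyclin, had 120 to 160 counts per library in experiment 1 and 27 to 54 in experiment 2. Its mean CPM was the lowest of the 10 in every group except LIN9 KO/SAV1 wt, where Ccne1 was lower (13.3 against 15.2 CPM). The level of Ccne2 was 15.1, 12.6 and 14.8 CPM in LIN9 wt and 17.3, 15.4 and 13.99 in LIN9 KO of experiment 1. The groups of every comparison overlapped. The log2 change was 0.13 (95% interval −0.17 to 0.44) in experiment 1, 0.21 (−0.29 to 0.71) with SAV1 wt and −0.06 (−0.56 to 0.44) with SAV1 KO. In experiment 2 its intervals were the widest of the 10 genes. The intervals of Ccne1 and Ccne2 were apart in experiment 1 and with SAV1 wt, and overlapped with SAV1 KO.

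Of the D cyclins, the G1 partners of CDK4 and CDK6, Ccnd2 rose. It was at 413, 335 and 347 CPM in the control and 536, 453 and 463 in LIN9 KO/SAV1 wt. With SAV1 KO it was 339, 314 and 341 CPM in LIN9 wt and 440.0, 457 and 454 in the double knockout. The LIN9 KO libraries lay above the LIN9 wt libraries in both pairs. The fold was 1.33 with SAV1 wt (log2 0.41 ± 0.10 SE, adjusted p = 0.003, edgeR) and 1.36 with SAV1 KO (0.44 ± 0.10, adjusted p = 0.0015). The former was lost without control replicate 2 (0.31, adjusted p = 0.053). In experiment 1 it was 359.7, 397 and 352 CPM in LIN9 wt and 449, 449.8 and 405 in LIN9 KO, groups that did not overlap either, yet the change of 0.23 ± 0.11 was not called (adjusted p = 0.16). For the double knockout against the control (0.30 ± 0.10, adjusted p = 0.029), 8 of 14 alternatives lost the call, among them total counts in place of TMM (adjusted p = 0.052), leaving out the haemoglobin and erythroid genes (0.28, adjusted p = 0.052) the fit of these groups alone (0.28, adjusted p = 0.065) and leaving out control replicate 2 (0.23) or 3 (0.27) or double knockout replicate 1 (0.28), 2 (0.26) or 3 (0.27).

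Ccnd3 went the other way. The libraries of experiment 2 gave 347, 303 and 322 CPM in LIN9 wt/SAV1 KO and 252, 250.4 and 264 in the double knockout, and it fell by 0.34 ± 0.10 on the log2 scale (adjusted p = 0.014, edgeR). This call was lost without LIN9 wt/SAV1 KO replicate 1 (−0.29, adjusted p = 0.08). In experiment 1 it was 302, 336 and 321 CPM in LIN9 wt and 288, 264 and 269.5 in LIN9 KO, without overlap. The changes in experiment 1 (−0.22 ± 0.11, adjusted p = 0.158) and with SAV1 wt (−0.15 ± 0.10, adjusted p = 0.323) were not called. The latter was called without LIN9 KO/SAV1 wt replicate 1 (−0.30, adjusted p = 0.028), which at 318 CPM lay above 250.3 and 248 in the other two. The pseudogene Ccnd3-ps carried 340 to 459 counts per library in experiment 1 and 71 to 121 in experiment 2, so reads of Ccnd3 may be divided between them.

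Ccnd1 was not called in any comparison. It was at 77.4, 91.2 and 77.9 CPM in LIN9 wt and 104, 92.8 and 85.5 in LIN9 KO of experiment 1, a log2 change of 0.19 (95% interval −0.04 to 0.43). With SAV1 wt the change was −0.07 (−0.31 to 0.17) and with SAV1 KO 0.12 (−0.12 to 0.36).

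The shares of the D cyclins were taken per kb of exon. Ccnd2 made up 42.2% ± 0.819 (SD, n = 3) of the D cyclins in LIN9 wt and 47.4% ± 1.34 in LIN9 KO of experiment 1. In experiment 2 it made up 42.7% ± 1.69 in the control and 52.1% ± 1.60 in LIN9 KO/SAV1 wt, and 40.9% ± 1.12 and 51.9% ± 1.07 with SAV1 KO. Ccnd3 went from 39.1% ± 1.12 to 32.1% ± 1.30 in experiment 1. By the longest transcript, Ccnd2 went from 35.8% to 41.7% and Ccnd3 from 50.8% to 43.1% there. In experiment 1, which share was larger thus depended on the length used. In the LIN9 KO groups of experiment 2, Ccnd2 was the larger by both lengths. By the longest transcript it made up 45.7% against 41.9% for Ccnd3 with SAV1 wt, and 45.5% against 42.3% with SAV1 KO. In LIN9 wt/SAV1 KO, Ccnd3 was the larger per kb of exon too, at 42.9%. The LIN9 wt and LIN9 KO libraries did not overlap in either share.

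Cdk1, the mitotic kinase, changed less than its partners Ccna2 and Ccnb1. It was at 199.7, 209 and 213 CPM in LIN9 wt and 167, 155 and 211 in LIN9 KO of experiment 1, and the groups overlapped through LIN9 KO replicate 3. The change of −0.22 ± 0.12 (log2) was not called (adjusted p = 0.228, edgeR), and without that replicate it was −0.36 (adjusted p = 0.015). With SAV1 wt, at 165, 152 and 164 CPM in LIN9 wt and 159.7, 133 and 130.1 in LIN9 KO, it was −0.19 ± 0.10 (adjusted p = 0.205), and −0.31 without LIN9 KO/SAV1 wt replicate 1 (adjusted p = 0.033). With SAV1 KO, Cdk1 was 178, 169 and 171 CPM in LIN9 wt and 149, 142 and 123 in the double knockout, and fell by 0.33 ± 0.10 (adjusted p = 0.021). Leaving out LIN9 wt/SAV1 KO replicate 1 (−0.30, adjusted p = 0.079) or 3 (−0.33, adjusted p = 0.057), or double knockout replicate 3 (−0.27, adjusted p = 0.105), lost this call. The interval of Cdk1 lay above those of Ccna2 and Ccnb1 in all 3 comparisons, its lower ends being −0.47, −0.40 and −0.54.

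Cdk2, the partner of E and A cyclins, was not called. It was at 118, 129 and 117 CPM in LIN9 wt and 106, 109.9 and 113 in LIN9 KO of experiment 1. With SAV1 wt it was 99.1, 113 and 115 CPM in LIN9 wt and 99.6, 85.6 and 87.98 in LIN9 KO, and with SAV1 KO 118, 107 and 111 against 99.5, 89.8 and 93.9 CPM. The groups overlapped with SAV1 wt, through LIN9 KO replicate 1, and were apart in the other pairs. Its log2 change was −0.14 (95% interval −0.35 to 0.06) in experiment 1, −0.26 (−0.47 to −0.05, adjusted p = 0.073) with SAV1 wt and −0.24 (−0.46 to −0.03, adjusted p = 0.092) with SAV1 KO. With SAV1 wt it passed the threshold without control replicate 1 (−0.34, adjusted p = 0.028) or LIN9 KO/SAV1 wt replicate 1 (−0.34, adjusted p = 0.021). The log2 ratio of Cdk1 to Cdk2, per kb of exon, overlapped between LIN9 wt and LIN9 KO in every pair, at 1.11 ± 0.09 (SD, n = 3) and 1.02 ± 0.20 in experiment 1. By the longest transcript these means were 0.35 and 0.26.

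Summed per kb, Ccna2, Ccnb1, Ccnb2 and Cdk1 were set against the D and E cyclins with Cdk2. The log2 ratio of the sums was 0.53 ± 0.03 (SD, n = 3) in LIN9 wt and 0.13 ± 0.19 in LIN9 KO of experiment 1. In experiment 2 it was 0.40 ± 0.04 in the control, 0.01 ± 0.02 in LIN9 KO/SAV1 wt, 0.49 ± 0.04 in LIN9 wt/SAV1 KO and −0.06 ± 0.06 in the double knockout. Every LIN9 KO library lay below every LIN9 wt library of its own experiment. The size of the ratio, though not this order, depended on the length used.

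**Figure D3:**
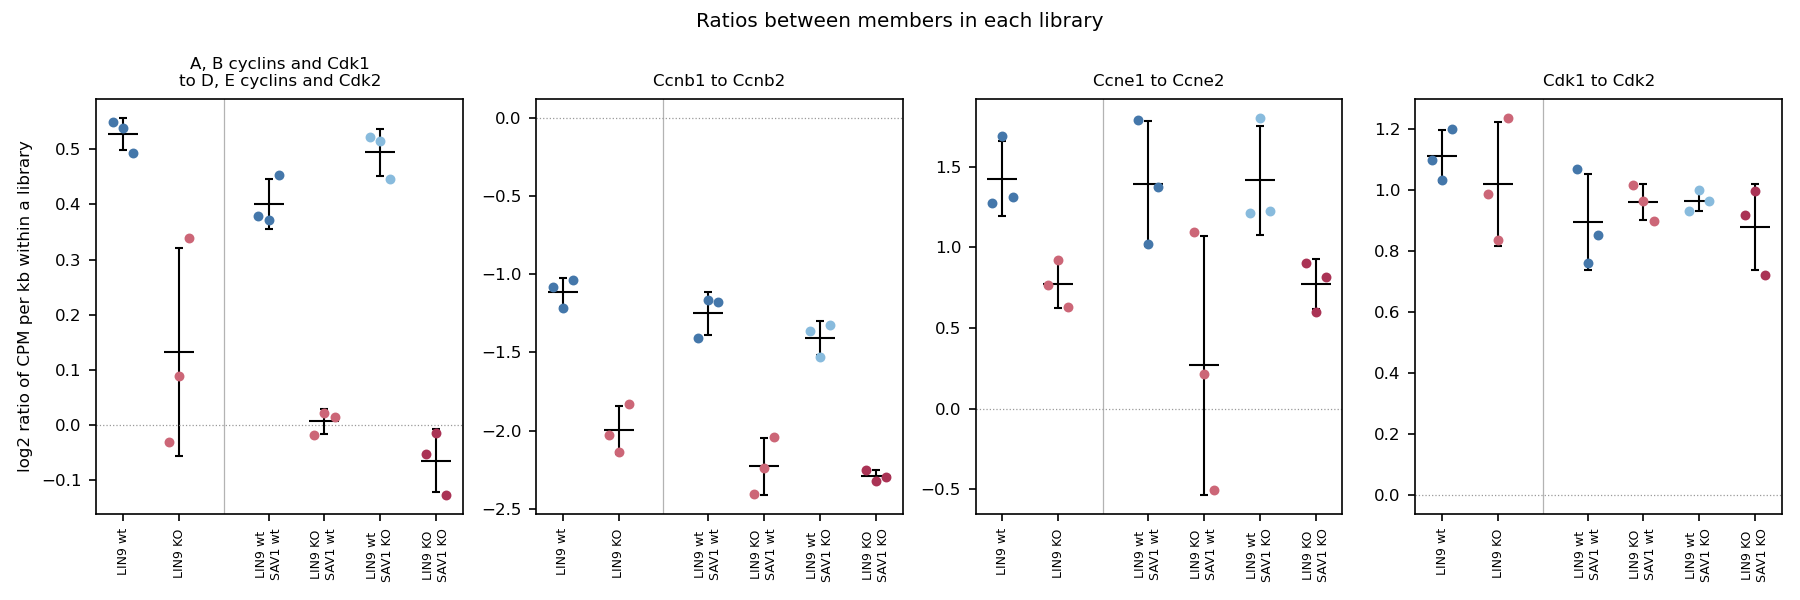
Log2 ratios of CPM per kb within each library (points), with group mean ± SD (n = 3), for the A and B cyclins with Cdk1 against the D and E cyclins with Cdk2, Ccnb1 against Ccnb2, Ccne1 against Ccne2, and Cdk1 against Cdk2. The first 2 ratios fall in LIN9 KO in each pair of groups with no overlap, and the last overlaps in each.

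Levels of different genes can be compared only per length, and here the counting sets a limit. Among genes whose exons lie wholly under the spans of genes on the other strand, 98.0% had 0 counts in experiment 1, against 42.2% of genes with no exon base under another gene. Actc1 and Alas2 are such genes. A count of 0 in such a place is therefore no measure of expression. The exons of the members lie in part under other genes, 62.9% in Ccne2 (under Ints8), 37.6% in Ccnd1 (LTO1), 28.7% in Ccnd2, 21.1% in Ccna2 (Exosc9), 4.11% in Ccnd3 (Bysl) and a part of Cdk2 (Pmel), and 0% in Ccnb1, Ccnb2, Ccne1 and Cdk1. Fold changes compare the same bases between groups, whereas levels between genes do not.

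In the control, Ccnb2 had the highest level at 55.7 ± 2.82 CPM per kb (SD, n = 3), then Ccna2 at 48.9 ± 3.74, Ccnd2 at 38.8 ± 4.44, Ccnd3 at 34.4 ± 1.65 and Cdk1 at 32.5 ± 1.42. Of these, Ccnd2, Ccnd3 and Cdk1 overlapped with their neighbours. Ccnb1 followed at 23.4 ± 1.10, Cdk2 at 17.5 ± 1.40, Ccnd1 at 17.4 ± 0.774, Ccne1 at 9.67 ± 0.466 and Ccne2 at 3.74 ± 0.834 CPM per kb, and among these Cdk2 and Ccnd1 overlapped. By the longest transcript, Ccnd3 came first. Over the exonic length outside other genes, an alternative chosen after seeing the counts, Ccna2 led at 62.0 and Ccne2 stood at 10.1 CPM per kb, near Ccne1 at 9.67. In LIN9 KO/SAV1 wt, Ccna2 was 5th at 26.2 ± 2.39 and Ccnb1 8th at 12.1 ± 0.890 CPM per kb, and Ccnd2 was 2nd at 51.4 ± 4.85. There Ccnb2 overlapped with Ccnd2, and Ccnd3, Cdk1 and Ccna2 overlapped with their neighbours in the order. Ccna2 came 4th by the longest transcript and 3rd by the length outside other genes. By that length, Ccnd2 led the LIN9 KO groups, at 72.1 CPM per kb with SAV1 wt and 67.1 with SAV1 KO.

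Loss of SAV1 changed none of the 10 genes past the threshold. With LIN9 wt, 0 of 10 were called, against 0.017% of all genes (3 of 17675, edgeR), and with LIN9 KO 0 of 10, against 0.0113% (2 of 17675). At an unadjusted p under 0.05, 325 genes were higher and 368 lower with LIN9 wt, and 835 higher and 1258 lower with LIN9 KO. DESeq2 called 2 and 46 genes, with 0 members in either. The largest change of a member with LIN9 wt was that of Ccnd1. It was at 85.8, 81.5 and 78.5 CPM in the control and 67.6, 68.5 and 61.1 in LIN9 wt/SAV1 KO, lower in every library, and the log2 change was −0.32 (95% interval −0.56 to −0.08, unadjusted p = 0.0115, adjusted p = 0.999). With LIN9 KO the largest was that of Ccne1, from 14.5, 14.8 and 10.8 to 21.8, 15.8 and 16.7 CPM (0.44, 0.05 to 0.82, unadjusted p = 0.0289, adjusted p = 0.364), higher in every library. The libraries were also apart for Cdk1 with LIN9 wt, higher in SAV1 KO (152 to 165 against 169 to 178 CPM), and, with LIN9 KO, for Ccnb1 (47.9 to 55.2 against 42.3 to 45.0) and Ccnb2 (82.0 to 96.0 against 76.8 to 80.0), both lower in SAV1 KO. None of these was called. How many of all genes had libraries apart in this way was not counted, so nothing is read from these separations about the members. Of the 8 marker lists, few had sums that were apart in the same comparisons, and the sums of all others overlapped. With LIN9 wt, the endothelial sum was lower in SAV1 KO (901 to 948 against 789 to 841 CPM) and that of smooth muscle higher (1399 to 1510 against 1640 to 1702). With LIN9 KO, the epicardial sum was lower in the double knockout (376 to 453 against 357 to 369 CPM). No single gene of the 8 marker lists was called on loss of SAV1, and the part of these cells in the differences was not tested.

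The 95% intervals show which sizes of change these libraries leave possible. For Ccna2 the change on loss of SAV1 with LIN9 wt was 0.08 (95% interval −0.13 to 0.28) and for Ccnb1 −0.07 (−0.29 to 0.15). For Ccnb2 it was 0.08 (−0.13 to 0.30) and for Cdk1 0.11 (−0.10 to 0.32). Those of Ccnd2 (−0.34 to 0.07), Ccnd3 (−0.11 to 0.31) and Cdk2 (−0.18 to 0.25) were of like width. The E cyclins, with fewer counts, were less well bounded, at 0.18 (−0.15 to 0.51) for Ccne1 and 0.15 (−0.36 to 0.65) for Ccne2. With LIN9 KO, the changes were −0.16 (−0.37 to 0.06) for Ccna2, −0.21 (−0.45 to 0.03) for Ccnb1 and −0.03 (−0.24 to 0.18) for Cdk1, and for Ccne2 −0.13 (−0.62 to 0.37).

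**Figure D4:**
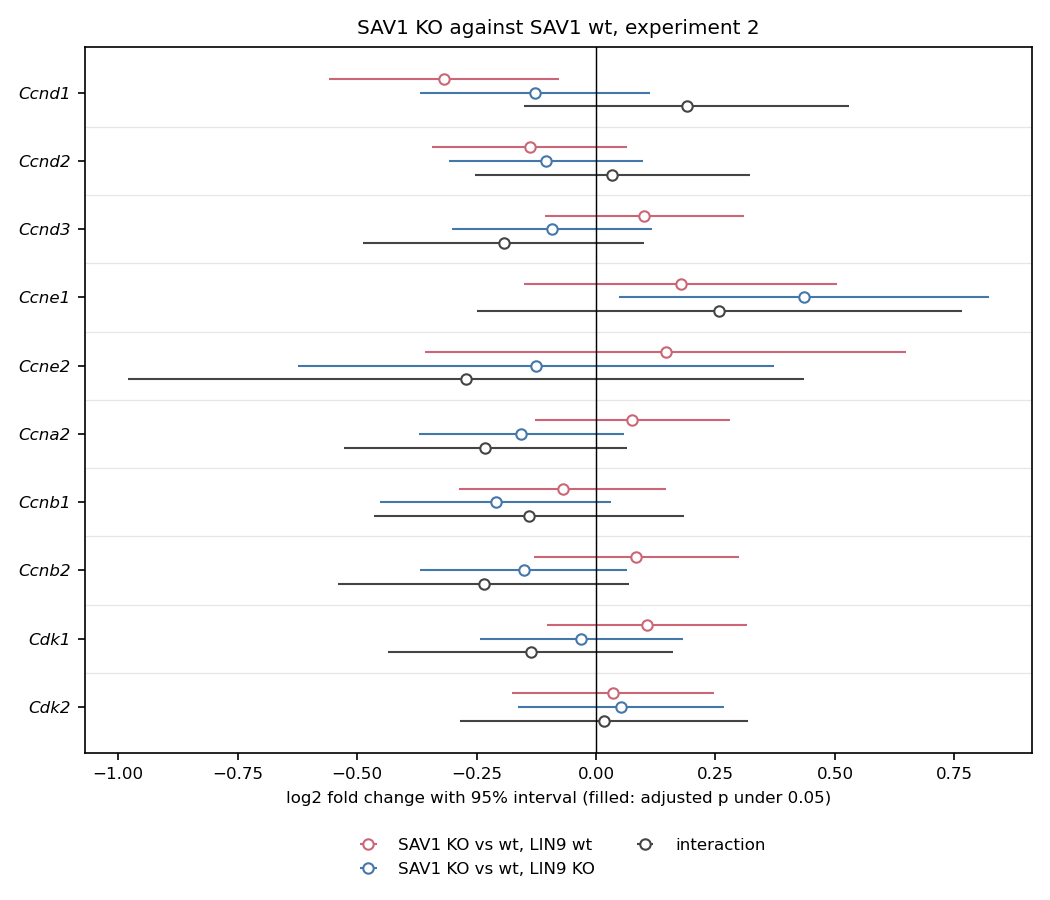
Log2 fold change with 95% interval (x axis) on loss of SAV1 with LIN9 wt or LIN9 KO, and their difference (interaction), for each gene. All symbols are open, since none had an adjusted p under 0.05. The interval of Ccnd1 with LIN9 wt and that of Ccne1 with LIN9 KO leave out 0.

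Whether the loss of SAV1 acted differently without LIN9 was tested as an interaction in the same fit. It was called for 0 of the 10 genes and for 0% of all genes (0 of 17675), with 454 genes above and 702 below 0 at an unadjusted p under 0.05 and 0 called by DESeq2. The interaction was −0.23 (95% interval −0.53 to 0.06) for Ccna2, −0.14 (−0.47 to 0.18) for Ccnb1, −0.24 (−0.54 to 0.07) for Ccnb2 and 0.26 (−0.25 to 0.77) for Ccne1. In the double knockout against the control, Ccna2 fell by 1.06 ± 0.10 and Ccnb1 by 1.16 ± 0.11 on the log2 scale (adjusted p = 2.1e-08 and 1.8e-08, edgeR). The corresponding changes in LIN9 KO/SAV1 wt, against the same control libraries, were −0.90 and −0.95.

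The partners and regulators of these kinases were taken as a list of 18 genes, of which 16 could be tested. Wee1 and Fbxw7 were at 0 counts in each library, and their exons lie wholly under the span of another gene. In experiment 1, 0 of the 16 were higher and 2 lower, where 11.1% of all tested genes were higher and 9.78% lower. With SAV1 wt 0 were higher and 2 lower, beside 12.8% and 10.5% of all genes. With SAV1 KO 0 were higher and 3 lower, beside 11.8% and 11.6%. With 16 genes these counts are close to the shares of all genes, and nothing is read from them about the list. Ccnf, a cyclin of a ubiquitin ligase, fell by 0.47 ± 0.14 with SAV1 wt (adjusted p = 0.0124, edgeR) and by 0.66 ± 0.14 with SAV1 KO (adjusted p = 0.001). Cdc25b, a phosphatase that activates CDK1, fell by 0.34 ± 0.11 in experiment 1 (adjusted p = 0.032) and by 0.66 ± 0.15 with SAV1 KO (adjusted p = 0.0016). Fzr1, an activator of the anaphase-promoting complex, fell by 0.35 ± 0.10 in experiment 1 (adjusted p = 0.02) and by 0.61 ± 0.11 with SAV1 KO (adjusted p = 9.8e-05). Cks2, a small CDK-binding protein, fell by 0.51 ± 0.15 with SAV1 wt (adjusted p = 0.011). In experiment 1 the call of Fzr1 was lost without LIN9 wt replicate 2 (−0.29) or 3 (−0.36) or LIN9 KO replicate 1 (−0.34), and that of Cdc25b with DESeq2 and without any of the LIN9 wt replicates or LIN9 KO replicate 1 (−0.37 to −0.27). Ccnf and Cks2, not called in experiment 1 (−0.40, adjusted p = 0.056, and −0.29, adjusted p = 0.059), were called there in 5 and 3 of 13 alternatives, among them total counts and the replicate block (adjusted p = 0.011 and 0.042). Cdc25b and Fzr1, not called with SAV1 wt (−0.26, adjusted p = 0.227, and −0.25, adjusted p = 0.087), were each called there in 1 of 14 alternatives, Cdc25b without LIN9 KO/SAV1 wt replicate 2 (−0.45, adjusted p = 0.048, against −0.16 without replicate 3) and Fzr1 without control replicate 2 (−0.35, adjusted p = 0.035). The call of Ccnf with SAV1 wt was lost without LIN9 KO/SAV1 wt replicate 2 (−0.42). In the double knockout against the control, Ccnf (−0.70), Cdc25b (−0.66) and Fzr1 (−0.54) were lower. Cdk4 and Cdk6, the kinases of the D cyclins, were not called.

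**Figure D5:**
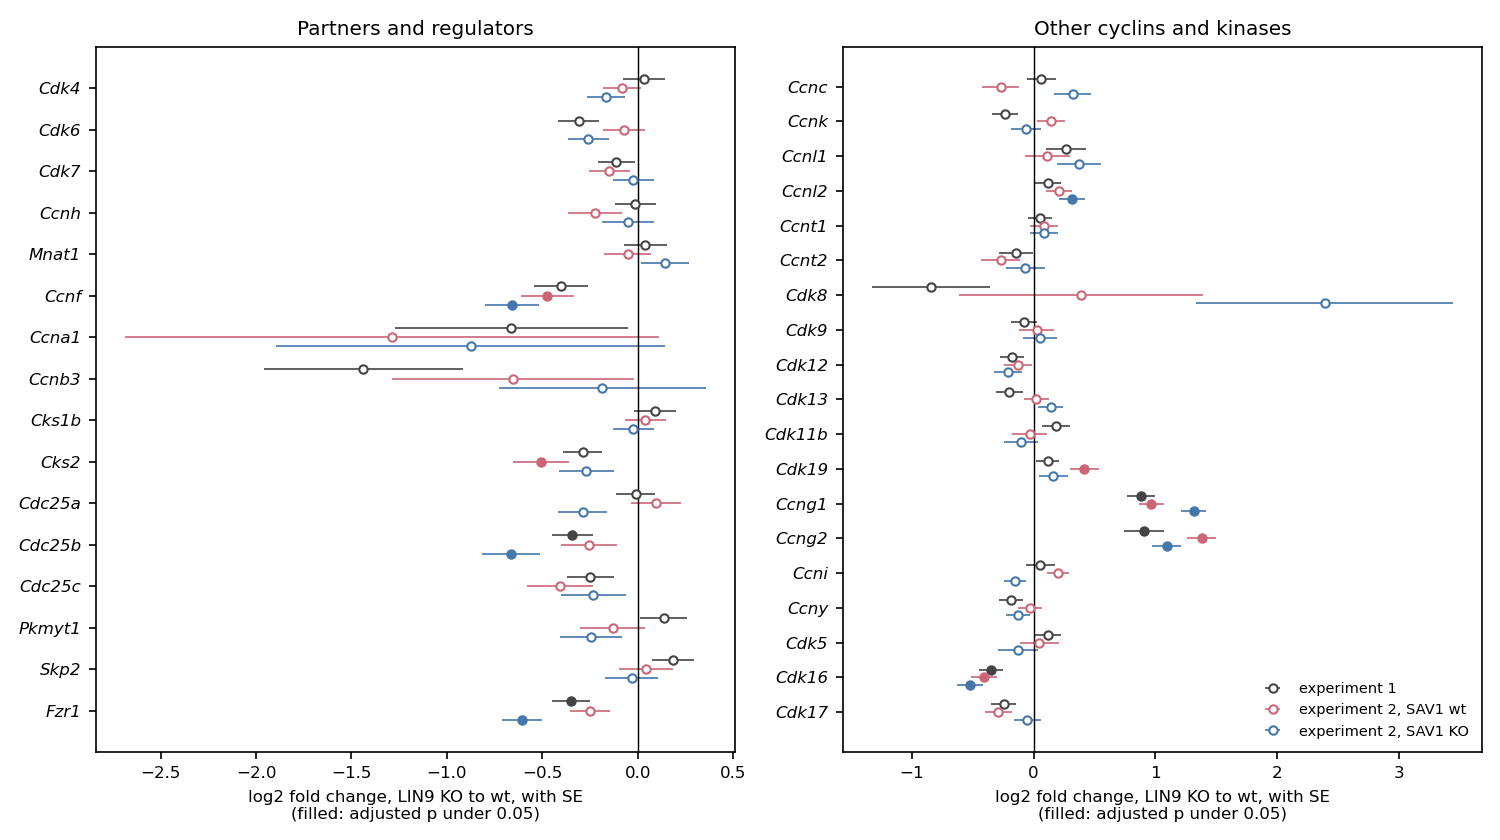
Log2 fold change ± SE of LIN9 KO against LIN9 wt (x axis) for the tested partners and regulators (left) and the other cyclins and kinases (right) in the 3 comparisons, with filled symbols for an adjusted p under 0.05. Ccng1 and Ccng2 lie near or above 1 in each, and Cdk16 lies below 0.

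Of 20 other cyclins and kinases, many of which act in transcription, 19 were tested. In experiment 1, 2 rose and 1 fell, where 11.1% of all tested genes were higher and 9.78% lower. In each of the other comparisons of LIN9 KO 3 rose and 1 fell, beside 12.8% of all genes higher and 10.5% lower with SAV1 wt, and 11.8% and 11.6% with SAV1 KO. With 19 genes these counts, too, are close to the shares of all genes. Ccng1, a cyclin gene induced by p53, rose by 0.88 ± 0.12 (log2, SE) in experiment 1 (adjusted p = 8.9e-05, edgeR), by 0.97 ± 0.10 with SAV1 wt and by 1.31 ± 0.10 with SAV1 KO. Ccng2, a cyclin linked to cells that leave the cycle, rose by 0.91 ± 0.16, 1.38 ± 0.12 and 1.09 ± 0.12 (adjusted p = 0.0023, 1.4e-09 and 9.75e-08). Cdk16 fell by 0.35 ± 0.10, 0.41 ± 0.11 and 0.52 ± 0.11 (adjusted p = 0.021, 0.0049 and 0.00056), and its call in experiment 1 was lost without LIN9 wt replicate 2 (−0.35) or 3 (−0.30) or LIN9 KO replicate 1 (−0.35). Cdk19, a Mediator kinase, rose with SAV1 wt (0.42 ± 0.12, adjusted p = 0.0091), and Ccnl2, a cyclin of splicing kinases, with SAV1 KO (0.32 ± 0.10, adjusted p = 0.027). The call of Cdk19 was lost without control replicate 2 (0.31) or LIN9 KO/SAV1 wt replicate 2 (0.37), and that of Ccnl2 without LIN9 wt/SAV1 KO replicate 1 (0.28) or 3 (0.30) or double knockout replicate 1 (0.27) or 2 (0.23). The rises of Ccng1 and Ccng2 on loss of LIN9 held in all alternatives.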

How the data were processed

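Polyadenylated RNA of 18 samples was sequenced by the authors and mapped with TopHat 2.1.0 and BOWTIE2 to mm10. The study states that samples were set to the one with the fewest mappable reads. Total counts were alike only within each experiment (9485599 to 9615274 and 2770741 to 2999877). The deposited values are raw read counts for Ensembl genes, made by the authors with summarizeOverlaps; overlap mode and strandedness are not given in the sources used here. No column of values was left unused (0), and 4 repeated identifiers were kept once. Tables of the authors' own comparisons were not used; they hold log2 fold changes, log2 CPM, p-values and FDR from edgeR, per the file headers. ChIP-seq samples were not analysed here.

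TMM factors were computed on genes with a mean count above 1, which were tested in edgeR 4.0.16 (R 4.3.3, robust quasi-likelihood fit, Benjamini-Hochberg adjustment over all genes). Experiment 1 was fitted on its 6 libraries, and experiment 2 on all 12 with contrasts of group means. The procedure was tested on simulated data only for the loss of LIN9, in experiment 2 with SAV1 wt. The simulation changed fewer genes than were called in the data, and did not cover the loss of SAV1 or the interaction. Intervals are at 95%. Exonic lengths came from GENCODE M21 (GRCm38), promoters from RefSeq. The members and gene lists were chosen with earlier results of these data known. The rule names the members, Lin9 and Sav1, genes of the 2 lists of partners and other cyclins past the threshold in any comparison, and the 2 genes most alike in profile to each member. Cdk4, Cdk6, Ccnd3-ps, genes that overlap a member and the genes at 0 counts were named after their values were seen, and marker genes are given as lists. Alternatives were DESeq2 1.42.0, other size factors and filters, a replicate block, fewer groups in the fit, other lengths, and leaving out each library; leaving out haemoglobin and erythroid genes, and the length outside other genes, were added after seeing the data.

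No 2 libraries of a group were identical. The chi-square per degree of freedom between libraries of a group, which is 1 for counting noise alone, was 5.67 to 26.2 in experiment 1 and 1.22 to 21.5 in experiment 2, lowest for control replicates 2 and 3 and 1.39 to 1.98 in LIN9 wt/SAV1 KO. Samples with the same replicate number were checked for pairing. Over all tested genes no comparison had every pair above 0.1 (lowest r 0.0267 in experiment 1, 0.0891 with SAV1 wt). Over the 6742 genes with a mean count above 100, deviations from the group means correlated in every pair between the control and LIN9 KO/SAV1 wt (r 0.411 to 0.771) and between the control and LIN9 wt/SAV1 KO (0.237 to 0.506), and also between LIN9 KO/SAV1 wt and LIN9 wt/SAV1 KO (0.233 to 0.518), all with r above 0.1. Not every pair passed 0.1 with the double knockout (−0.124 to 0.166) or in experiment 1; this count limit was added after seeing the data. The labels name no shared litter or day.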

Additional observations from a re-analysis of the deposited data

How the results depend on the processing

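The calls of Ccna2 and Ccnb1 on loss of LIN9 kept their direction and their side of the threshold in all alternatives, and no called member changed sign. Among single members, 4 calls were lost under other settings, and leaving out 1 library cost 15 calls and added 6. Leaving out single libraries gave 2 to 4 members called in experiment 1, 3 to 7 with SAV1 wt, 4 to 6 with SAV1 KO and 2 to 4 in the double knockout against the control, with 7 reached without LIN9 KO/SAV1 wt replicate 1. A fit with the replicate number as a block called 3, 4, 6 and 4 members in these comparisons, as without it, and 0 for SAV1 and the interaction. It changed the count of all genes by over 1.5 times only for SAV1 with LIN9 KO, from 2 to 84, where same-numbered samples did not deviate together (lowest r −0.105). For the count of all genes on loss of SAV1 with LIN9 KO, DESeq2 gave 46, no filter 309, a mean count above 10 gave 0 and the fit of these groups alone 0. With LIN9 wt, no filter gave 22 and the fit of these groups alone 31, and for the interaction no filter gave 17. Single libraries left out moved these counts to between 0 and 378 (378 without LIN9 KO/SAV1 wt replicate 3), between 0 and 2, and between 0 and 64, and the count of all genes in experiment 1 to between 2722 and 4223, the lowest without LIN9 wt replicate 3. The causes were not tested. The log2 ratio of A and B cyclins with Cdk1 to D and E cyclins with Cdk2, in the order LIN9 wt and LIN9 KO of experiment 1, control, LIN9 KO/SAV1 wt, LIN9 wt/SAV1 KO and double knockout, was 0.060, −0.37, −0.065, −0.51, −0.0023 and −0.59 by the longest transcript, and 0.26, −0.20, 0.13, −0.34, 0.25 and −0.40 by the length outside other genes. Ccne2 had 27 to 54 counts per library in experiment 2, and the part of depth in its wide intervals was not tested.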

Other observations

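Profiles over the 18 libraries were compared, each centred within its experiment on the log2(CPM + 0.5) scale, among 12118 genes with a mean of at least 5 CPM in both experiments. The genes nearest to Ccna2 were Ndufb10 and Hspb1, with a root mean square difference of 0.116 and 0.117, where Ccna2 itself spread by 0.487. The nearest to Ccnb1 were Kbtbd12 (0.112) and Knstrn (0.127), beside a spread of 0.505, and to Ccne1 Ctps (0.133) and Psat1 (0.142), beside 0.414. Fmnl3 (0.0596) and Dennd2a (0.0853) were nearest to Ccnd2, which spread by 0.211. For the other members the spread was 0.103 to 0.263 and the nearest genes, Prdx6 and Ints3 for Ccnb2, Arf3 and Mgat2 for Ccnd1, Gsk3a and Pabpc4 for Ccnd3, Jak2 and Zik1 for Ccne2, Paics and Mtch2 for Cdk1, and Eif4g2 and Nup88 for Cdk2, differed by 0.0583 to 0.142. The libraries share their genotypes and scaling, so such likeness is a description.

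Of 11150 genes whose exons lie wholly under other genes' spans, 97.6% were at 0 in experiment 1, and 99.3% of the 7951 that share no exon base with another gene. Cdk10, the one untested gene among the other cyclins and kinases, is among the former and not the latter.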
